A study of Mus musculus with 8 samples.

Results

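Pan-neuronal cytoskeleton and adhesion genes were followed through the conversion of mouse fibroblasts into neurons by a DNA mark, 5-hydroxymethylcytosine. The 10 genes were Tubb3, Map2, Mapt, Dcx, Stmn2, Gap43, Ncam1, Nefl, Nefm and Nefh, chosen by name as general neuronal markers and found by their symbols in the deposited promoter and peak lists. They are 10 of 26220 genes with a curated RefSeq transcript, the background used for every share over all genes. The mark was profiled by hMeDIP-seq, in which genomic fragments that carry it are captured with an antibody and sequenced, in cells of the ICR mouse strain. Induced neurons made from mouse embryonic fibroblasts were taken at 1, 3, 5 and 7 dpi (the labels do not write out the abbreviation), and hippocampal primary neurons from pups 1 day old were named the positive control. MEFs, the fibroblasts themselves (E13.5), were the negative control, and all groups carried a label of 3 to 5 passages. Each group was 1 library. The factors that induced the neurons, the promoters that drove them and any sorting are not stated in these sources, so the libraries at the 4 days may hold converted and unconverted cells together. Since the files hold a DNA mark and no RNA, neither the neuronal nor the fibroblast label could be checked by expression. In a bulk library, fewer cells with the mark and less mark per cell cannot be told apart.

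5-Hydroxymethylcytosine is made from 5-methylcytosine by the TET dioxygenases and sits almost entirely at CG dinucleotides. It is abundant in the brain, is scarcer in most dividing cultured cells, and is often found along the bodies of active genes and at enhancers. The genes described here build the shape of a neuron. Tubb3 encodes the neuronal beta-tubulin, Map2 and Mapt (tau) encode proteins that bind microtubules of dendrites and axons, and Dcx (doublecortin) and Stmn2 act on microtubules of young neurons. Gap43 encodes a growth cone phosphoprotein, Ncam1 the neural cell adhesion molecule, and Nefl, Nefm and Nefh the light, medium and heavy neurofilament subunits.

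RefSeq promoter sequences on GRCm38.p6, the assembly of mm10, were at hand for 3 of the 10 genes. These 3 promoters differ widely in the number of CG dinucleotides that could carry the mark. The CG content of the other promoters is not known here. The sequences are shown 5′ to 3′ on the gene's own strand, with CG in capitals. Only bases upstream of the RefSeq gene span are printed. The transcription start site used for distances lies inside that span, so bases between its edge and that site are left out too. They lie at chr8:123411303-123411552 (plus strand) for Tubb3, chr1:66175079-66175201 (plus strand) for Map2 and chrX:143933397-143933469 (minus strand) for Dcx.
Tubb3: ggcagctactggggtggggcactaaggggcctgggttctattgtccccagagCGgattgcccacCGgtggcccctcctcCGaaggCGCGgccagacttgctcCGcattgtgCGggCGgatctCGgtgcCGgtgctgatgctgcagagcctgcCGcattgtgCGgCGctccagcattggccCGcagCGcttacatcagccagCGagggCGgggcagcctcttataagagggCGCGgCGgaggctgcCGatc
Map2: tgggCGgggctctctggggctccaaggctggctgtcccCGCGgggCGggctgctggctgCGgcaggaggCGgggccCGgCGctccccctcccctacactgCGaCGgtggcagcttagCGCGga
Dcx: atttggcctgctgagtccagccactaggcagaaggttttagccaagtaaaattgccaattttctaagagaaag

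The printed stretch of Tubb3 holds 21 CG in 250 bases, that of Map2 12 in 123 and that of Dcx 0 in 73, so these counts cover unlike lengths. Over the full windows of 300 bases around the start, the motif CG occurs 37 times at Map2, 26 times at Tubb3 and 3 times at Dcx, where the median of 32851 promoters is 7. As many or more are found in 5.58% of promoters for Map2, 16.9% for Tubb3 and 76.7% for Dcx. CG reads the same on both strands, so 1 search covers both. No listed region of Tubb3 or Dcx reached into these windows, and Map2 had no listed region.

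For each of the 5 comparisons with MEFs the authors deposited a list of promoter regions with more of the mark and a list with less, within 2000 bp of the transcription start site (TSS). The promoter signal was whole reads times a factor, and the reads were recovered from it. On the authors' scale a read was worth 1.78 MEF reads at 1 dpi, 1.75 at 3, 5 and 7 dpi and 1.80 in primary neurons, while library depth is not stated in the sources at hand. Folds are on that scale. The MEF library stood apart from the rest in its peak list, and it enters every comparison: 262, 1238, 1100 and 1579 peaks were called in induced neurons from day 1 to day 7 and 549 in primary neurons, against 176853 in MEFs. All folds compare single libraries, so none has a replicate check, and 95% intervals are exact conditional Poisson intervals that cover counting error only. Reads without molecular identifiers need not be independent molecules. Where a library had 0 reads the fold was computed at a floor of 3 reads for it and is given as at least N-fold. That bound leaves out counting error in the other library, and the lower limit of the 95% interval was smaller. For Tubb3 at 1 dpi the floor gave 6.52 and the lower limit was 4.46, and for Dcx at 1 dpi 2.81 and 2.02. The authors' p and q compare 2 libraries, not 2 conditions.

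Loss of promoter signal relative to MEFs was the more frequent listing. Dcx, Gap43, Ncam1, Nefm and Stmn2, 5 of the 10 genes, were listed lower in primary neurons and at 1 and 7 dpi, while at 3 dpi there were 4, without Stmn2, and at 5 dpi 4, without Dcx. Of all genes, 36.8% were listed lower at 1 dpi, 34.3% at 3 dpi, 34.1% at 5 dpi, 34.3% at 7 dpi and 34.8% in primary neurons. Gap43, Ncam1 and Nefm were lower in all 5 comparisons, as 24.7% of all genes were. With Dcx and Stmn2, 5 of the 10 were lower in at least 4 comparisons, against 32.2% of all genes, and the other 5 were lower in none, as 58.8% of all genes were. Because the 5 comparisons share the MEF library, the recurrence of a gene across them is not independent evidence. With 10 genes, 1 gene moves a share by 10 percentage points, so these counts do not set the 10 genes apart from the rest.

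Gains were few. Ncam1 and Tubb3 were listed higher at 1 dpi, Ncam1 at 5 dpi, Nefm at 7 dpi and Gap43 in primary neurons, 1 gene in each of the last 3, and none of the 10 at 3 dpi. The background was 11.7% of all genes at 1 dpi, 10.9% at 3 dpi, 16.9% at 5 dpi, 7.44% at 7 dpi and 7.43% in primary neurons. Map2, Mapt, Nefl and Nefh were in none of the 10 lists, as were 41.1% of all genes. The deposited lists hold only regions past the authors' threshold, so the reads at these 4 promoters are not known.

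**Figure D1:**
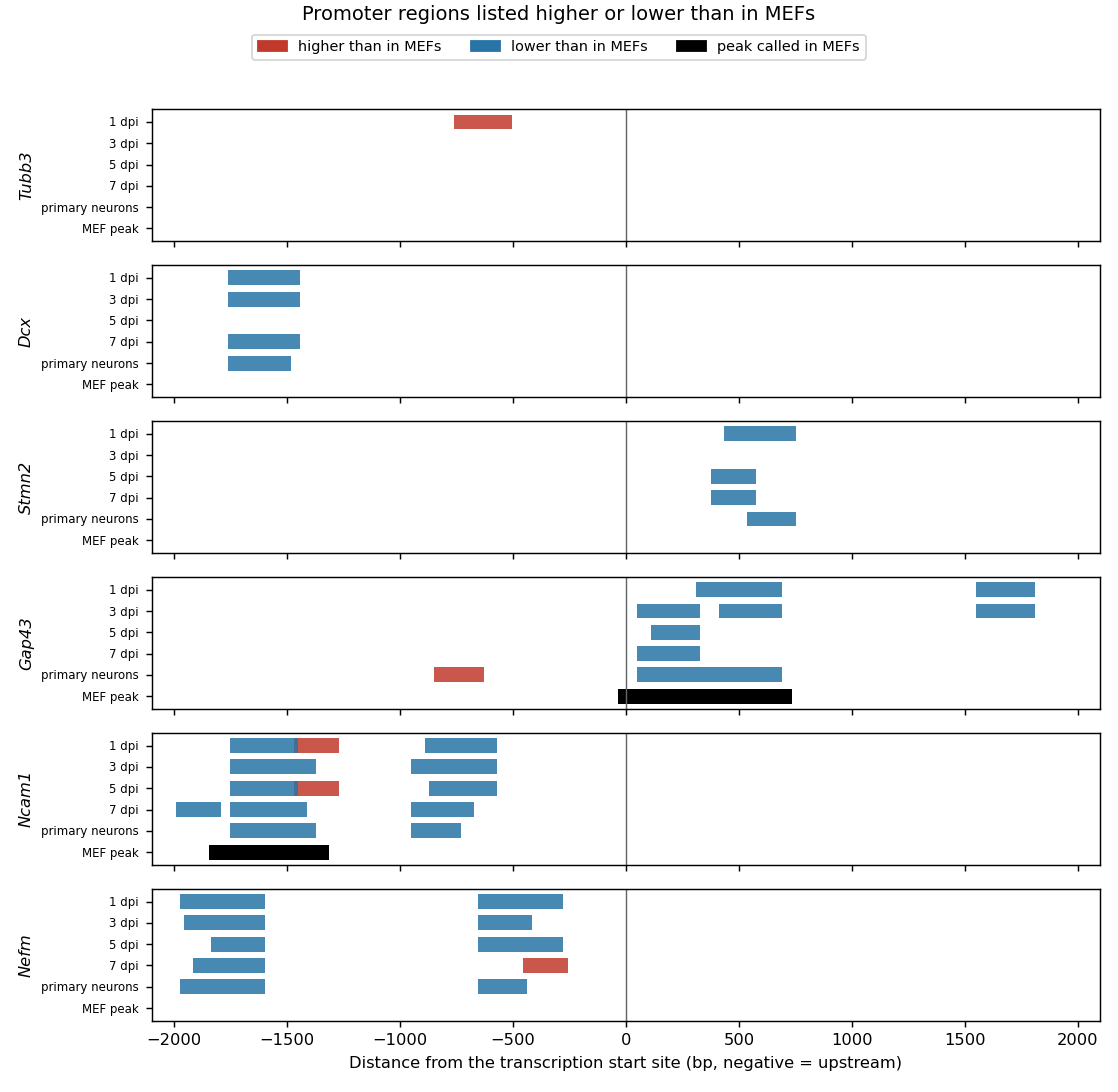
Positions of the listed promoter regions of the 6 genes that had any, by library (rows) and distance from the TSS in bp; red regions were higher and blue regions lower than in MEFs, and black bars are peaks called in MEFs. Lower regions recur at the same places from library to library, and MEF peaks lie under those of Gap43 and of Ncam1.

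The 41 listed regions of these genes were 200 to 640 bp long. The 36 lower ones lay at 9 places, and the 5 higher ones at 4. In 23 of the 36 lower regions the other library had 0 reads, in 9 it had 1 to 3 and in 4 it had more, up to 7 reads, against 15 to 44 reads in MEFs. Over all lower regions 0 reads were found in 68.4%, 55.9%, 57.2% and 56.3% from day 1 to day 7 and 62.7% in primary neurons. For these genes the shares were 75%, 75%, 50%, 57.1% and 57.1% in the same order. All 5 higher regions had 0 MEF reads, as had 91.2 to 96.2% of all higher regions. Summed over the lower regions of a comparison there were 8 reads at 1 dpi against 176 in MEFs, 4 at 3 dpi against 179, 9 at 5 dpi against 150, 7 at 7 dpi against 164, and 8 in primary neurons against 174. MEF reads in these regions had medians of 20 at 1 dpi, 21.5 at 3 dpi, 23 at 5 dpi, 22 at 7 dpi and 18 in primary neurons, next to 23 at 1 dpi and 24 elsewhere over all lower regions. The medians of these genes were thus below those of the full lists in each comparison. Each rests on 6 to 8 regions, and the comparisons reuse MEF reads at the same places, so they are not independent.

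Among the microtubule genes, Tubb3 was listed in 1 comparison and in the upward direction. A region 633 bp upstream of its TSS, chr8:123410801-123411060 (mm10), held 11 reads at 1 dpi against 0 in MEFs, at least 6.52-fold higher. Its q in the authors' deposited table was 0.000129. It was not listed at 3, 5 or 7 dpi or in primary neurons, where its reads are unknown below the list's limit of 9 reads. The gene had no assigned peak in any of the 6 libraries, and the nearest MEF peak to its TSS, assigned to another gene, lay 9.96 kb away. Tubb3 was the only gene of the 10 without an assigned MEF peak.

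Map2 and Mapt, which encode the microtubule-associated proteins that mark dendrites and axons of mature neurons, showed the mark in MEFs. The nearest summit of an assigned MEF peak lay 9.18 kb from the TSS at Map2 and 2.91 kb from it at Mapt. Map2 had 15 MEF peaks, 7 of them in the gene body and 8 intergenic, with a median fold enrichment of 4.16. Its strongest lay in the gene body 125 kb from the TSS and had a fold enrichment of 7.31 with 57 tags at the summit. Mapt had 8, of which 6 lay in the gene body, and the strongest, 42.2 kb from the TSS, reached 7.44. Neither gene had a MEF peak classed at the promoter, nor any peak in the other 5 libraries. By overlap with the RefSeq gene, whatever the class and assignment, MEF peaks numbered 12 at Map2 and 6 at Mapt.

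Dcx, the X-linked doublecortin gene that marks migrating young neurons, was listed lower at a single place upstream. The region chrX:143934661-143934980, 1601 bp upstream, held 0 reads at 1, 3 and 7 dpi against 15 in MEFs, at least 2.81-fold, 2.86-fold and 2.86-fold lower. In primary neurons a region centred 1621 bp upstream had 0 reads and MEFs had 15, at least 2.78-fold lower. The count of 15 is also the fewest MEF reads in any lower region of the deposited lists, so this gene stood at the limit of listing in each of the 4 comparisons. At 5 dpi it was not listed, and the difference between 5 dpi and the other libraries was not tested. No MEF peak lay on the region, and the nearest one to the TSS was 5.05 kb away.

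Stmn2, which encodes a stathmin that binds tubulin in growing axons, was lower just downstream of its TSS. At 7 dpi the region chr3:8509901-8510100, centred 474 bp into the gene, had 0 reads and MEFs had 27, at least 5.14-fold lower and with a q of 5.93e-06 in the authors' deposited table. At 5 dpi the same bases held 2 reads against 27 in MEFs, a ratio of 7.71 with an interval of 1.94 to 66.9. An overlapping region centred at 594 bp held 0 reads at 1 dpi against 17 in MEFs, at least 3.19-fold lower, and at 644 bp 0 reads in primary neurons against 17, at least 3.15-fold lower. The 4 listed libraries thus had between 0 and 2 reads, all below MEFs. No MEF peak was called there, although MEFs held 27 reads in 200 bp. Stmn2 was not listed at 3 dpi.

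**Figure D2:**
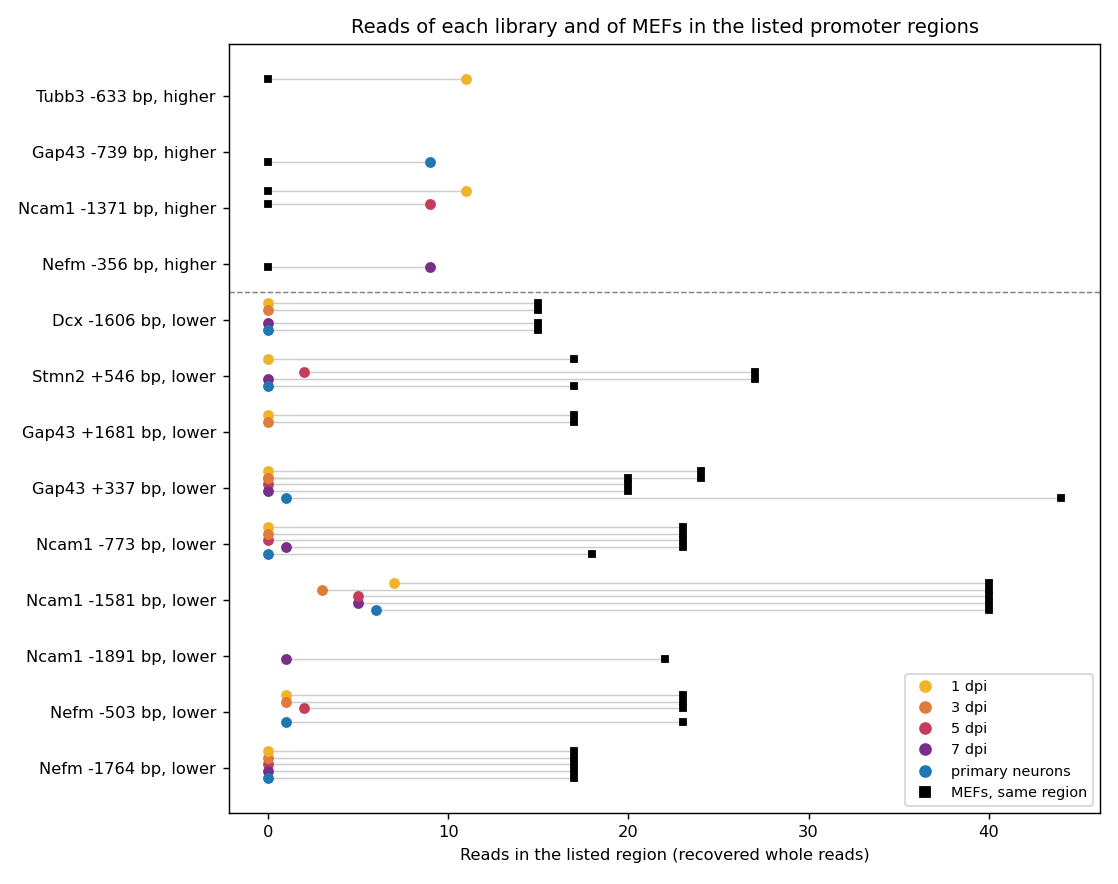
Recovered whole reads (horizontal axis) in each listed promoter region of the 10 genes; circles are the induced neurons of each day and the primary neurons, black squares the MEF reads of the same region, and each line joins a pair. Higher regions (above the dashed line) hold 9 or 11 reads against 0, and lower regions 0 to 7 reads against 15 to 44.

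The start of Gap43, the growth cone gene, carried the largest MEF count of the 36 lower regions. In primary neurons the region chr16:42339961-42340600, centred 371 bp downstream of the TSS, held 1 read against 44 in MEFs, a ratio of 24.4 with an interval of 4.16 to 987. Its q was 2.45e-07 in the authors' deposited table. At 1 dpi a part of it had 0 reads and MEFs had 24, at least 4.50-fold lower. At 3 dpi both ends were listed apart, with 0 reads against 24 and 0 against 20 in MEFs, at least 4.57-fold and 3.81-fold lower. At 5 and 7 dpi the part nearer the TSS had 0 reads and MEFs had 20, at least 3.81-fold lower each. These listed regions lie on a promoter peak called in MEFs, chr16:42339914-42340686, with 44 tags at its summit and a fold enrichment of 5.67. In them the 5 libraries held 0 or 1 read. The parts listed at 1, 3, 5 and 7 dpi do not cover the whole peak, and reads over the rest are unknown.

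A further region of Gap43, centred 1681 bp downstream of the TSS, held 0 reads at 1 and 3 dpi against 17 in MEFs, at least 3.19-fold and 3.24-fold lower. In primary neurons Gap43 was also listed higher, at chr16:42341281-42341500, 739 bp upstream, with 9 reads against 0 in MEFs, at least 5.40-fold. That is the fewest reads with which any region entered a list of higher ones. Gains and losses at this promoter did not share bases.

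Ncam1, the adhesion gene of the group, had the most listed places. Its region centred 721 to 841 bp upstream held 0 reads at 1, 3 and 5 dpi against 23 in MEFs, at least 4.31-fold, 4.38-fold and 4.38-fold lower. At 7 dpi it held 1 read against 23 in MEFs, a ratio of 13.1 with an interval of 2.13 to 541, and in primary neurons 0 reads against 18, at least 3.33-fold lower. The second place, on the MEF promoter peak chr9:49800382-49800916 with 56 tags and a fold enrichment of 5.41, kept some reads in every library. There 7, 3, 5 and 5 reads were found at 1, 3, 5 and 7 dpi and 6 in primary neurons, against 40 in MEFs. The ratios were 3.21 at 1 dpi (interval 1.42 to 8.50), 7.62 at 3 dpi (2.43 to 38.5), 4.57 at 5 dpi (1.80 to 14.8), 4.57 at 7 dpi (1.80 to 14.8) and 3.70 in primary neurons (1.56 to 10.7). These intervals overlap, so the order of the days is not resolved. At 7 dpi another place, 1891 bp upstream, held 1 read against 22 in MEFs, a ratio of 12.6 with an interval of 2.03 to 519.

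Next to its second lower place Ncam1 was listed higher at 1 and 5 dpi. The region chr9:49800341-49800540, 1371 bp upstream, counted 11 reads at 1 dpi and 0 in MEFs, at least 6.52-fold higher, and 9 at 5 dpi against 0, at least 5.25-fold higher. It overlaps the MEF promoter peak although it held no MEF read. The 40 MEF reads of the lower place were all counted within chr9:49800521-49800820, and only 20 bp of that stretch lie in the higher region. The MEF reads of the lower place thus lay outside the higher region.

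Of the 3 neurofilament genes, Nefm, the medium subunit, was listed lower in every comparison. Nefl and Nefh, the light and heavy subunits, were never listed, and whether they differ from Nefm was not tested. Nefl is the neighbour of Nefm, and their TSSs lie 41.1 kb apart on chromosome 14. The region of Nefm centred 466 to 546 bp upstream held 1 read at 1 dpi, 1 at 3 dpi, 2 at 5 dpi and 1 in primary neurons, against 23 in MEFs. The ratios were 12.9 at 1 dpi (interval 2.1 to 533), 13.1 at 3 dpi (2.13 to 541), 6.57 at 5 dpi (1.62 to 57.5) and 12.8 in primary neurons (2.08 to 526). A place 1716 to 1786 bp upstream held 0 reads in all 5 libraries against 17 in MEFs, at least 3.15-fold to 3.24-fold lower. Neither place lay on a MEF peak. At 7 dpi a region 356 bp upstream, chr14:68125261-68125460, was higher, with 9 reads against 0 in MEFs, at least 5.25-fold.

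The MEF reads behind the lower listing were only partly in called peaks. Of the 36 lower regions, 12 (33.3%) shared at least 1 bp with a MEF peak, all of them at Gap43 and Ncam1. By comparison the counts were 2 of 8 at 1 dpi, 3 of 8 at 3 dpi, 2 of 6 at 5 dpi, 3 of 7 at 7 dpi and 2 of 7 in primary neurons. Over all lower regions 46.3% did at 1 dpi, 49.7% at 3 dpi, 49.7% at 5 dpi, 49.2% at 7 dpi and 48.3% in primary neurons. None of the 41 listed regions of these genes lay on a peak of its own library. The share over all listed regions was not computed for this. Regions of 1 gene recur across comparisons and share MEF reads, so the 36 regions are not independent.

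Beyond promoters, the 10 genes had peaks mainly in MEFs, the library with the most peaks by far. Fold enrichments and tags of peaks are values of the authors and serve here to rank peaks inside 1 library. In MEFs 9 of the 10 genes had an assigned peak, next to 75.6% of all genes. By class, 6 of them had a peak in the gene body and 2 at the promoter, next to 41.9% and 19.8% of all genes. In the other libraries the genes with a peak were 0 of 10 at 1 dpi (0.805% of all genes), 0 at 3 dpi (3.86%), 1 at 5 dpi (3.41%), 0 at 7 dpi (4.71%) and 1 in primary neurons (1.62%). The input samples were titled MEF-Input and Mix-Input, and which of them served which library is not stated in these sources. How far the number of peaks itself depends on depth or on the input was not tested.

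The peak at 5 dpi was assigned to Nefh, the heavy neurofilament gene. It lay 11.3 kb upstream at chr11:4959019-4959498, with 34 tags at the summit, a fold enrichment of 5.28 and a −log10 q of 12.2. The peak of primary neurons was assigned to Gap43 from 182 kb away, at chr16:42158131-42158610, with 24 tags, a fold enrichment of 4.47 and a −log10 q of 6.74. Both were intergenic and neither met a MEF peak. Conversely, none of the 141 MEF peaks of the 10 genes overlapped a peak of any other library. Those libraries had 262 to 1579 peaks against 176853 in MEFs, so few MEF peaks of any gene could overlap one. The share over all MEF peaks was not computed.

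**Figure D3:**
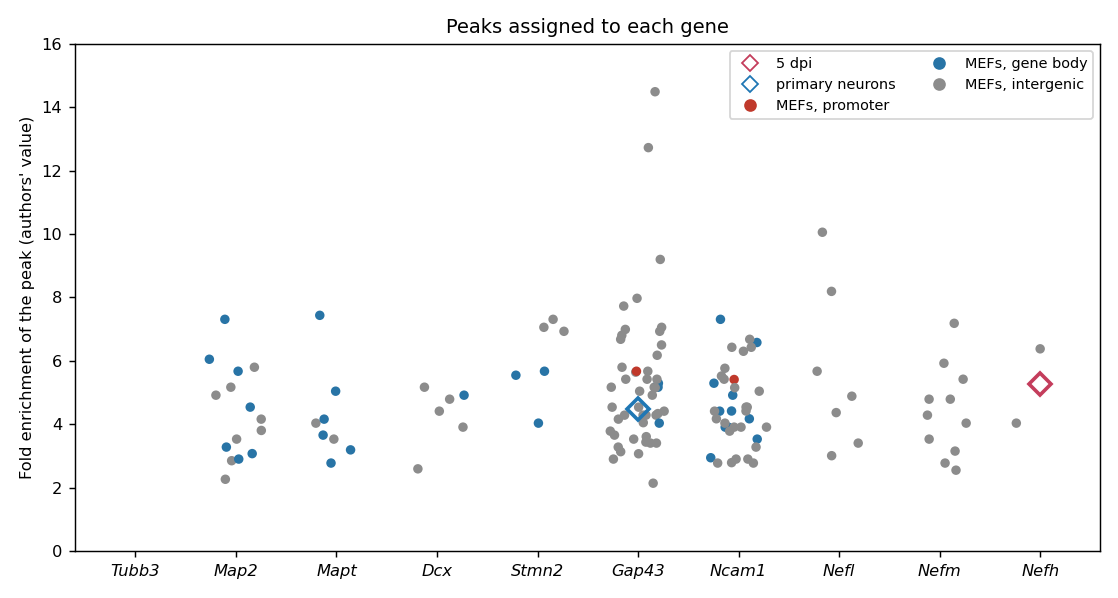
Fold enrichment of every peak assigned to the 10 genes (vertical axis, the authors' value); diamonds are the peaks at 5 dpi and in primary neurons and dots the 141 MEF peaks, coloured by the authors' class, with sideways scatter for legibility only. Gap43 and Ncam1 hold 86 of the MEF peaks, and Tubb3 has no peak.

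The MEF peaks were spread unevenly over the genes. Gap43 had 49 and Ncam1 37, together 61% of the 141, while Map2 had 15, Nefm 11, Mapt 8, Nefl 7, Dcx and Stmn2 6 each, Nefh 2 and Tubb3 0. For Gap43, 45 of the 49 were intergenic, up to 374 kb from the TSS, and only 3 lay in the gene body and 1 at the promoter. The strongest had a fold enrichment of 14.5 with 114 tags, 146 kb from the TSS at chr16:42194371-42195410. For Ncam1, whose gene spans 297 kb, 22 MEF peaks of any class overlapped the RefSeq gene, 7.40 per 100 kb. Intergenic peaks were assigned by the authors to a gene at a distance, so these counts also follow the space around a gene.

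The compact neurofilament genes had no MEF peak that the authors classed at the promoter or in the gene body. All 7 MEF peaks of Nefl, all 11 of Nefm and both of Nefh were classed as intergenic. A MEF peak assigned to another gene overlapped the RefSeq span of Nefm, 1 in 5.46 kb, and none overlapped Nefl or Nefh. The strongest near Nefl lay 13.6 kb from its TSS, with 81 tags and a fold enrichment of 10.1, and the strongest near Nefh 3.20 kb upstream, with a fold enrichment of 6.38. Dcx had 1 peak in its gene body and 5 intergenic ones, up to a fold enrichment of 5.17. Stmn2 had 3 and 3, with a median fold enrichment of 6.30, the highest median of the 9 genes.

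As a set the MEF peaks of these genes looked like the MEF list as a whole. The median fold enrichment was 4.54 for both, and 3 of the 141 reached 10, next to 1808 of 176853. Promoter peaks made up 1.42% next to 3.24% of all MEF peaks, gene body peaks 22% next to 24.4%, and intergenic peaks 76.6% next to 72.4%. Within the RefSeq spans of the 10 genes, 920 kb in all, there were 49 MEF peaks of any class and assignment, 5.33 per 100 kb, next to 6.87 per 100 kb over all genes.

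A wider set of 71 related genes in 8 lists had more genes listed lower than higher in each comparison. They were listed lower in 28 cases (39.4%) at 1 dpi, 28 (39.4%) at 3 dpi, 29 (40.8%) at 5 dpi, 27 (38.0%) at 7 dpi and 28 (39.4%) in primary neurons. The lists with higher regions held 11 (15.5%), 7 (9.86%), 16 (22.5%) and 4 (5.63%) of the genes in order of day, and 8 (11.3%) in primary neurons. Lower in at least 4 comparisons were 27 of the 71 (38.0%), against 32.2% of all genes, and none was higher that often. In MEFs 68 of the 71 (95.8%) had an assigned peak, next to 75.6% of all genes.

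**Figure D4:**
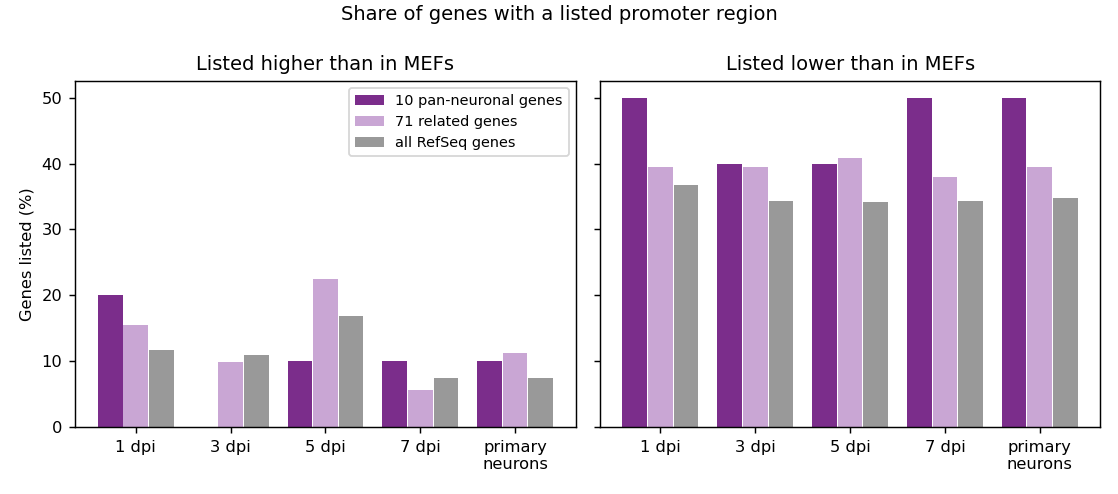
Share of genes with a listed promoter region, in percent, higher (left) or lower (right) than in MEFs, for the 10 pan-neuronal genes, 71 related genes and all 26220 RefSeq genes, by library; bars are counts over single libraries and carry no error. Lower shares run between 34.1% and 50%, higher ones between 0% and 22.5%.

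Of the tubulins and their partners, 3 of 8 were lower in at least 4 comparisons, Tubb2a, Tubb4a and the tau-tubulin kinase Ttbk1. Tubb4a, a beta-tubulin, held 1, 1, 2 and 0 reads at 1, 3, 5 and 7 dpi and 1 in primary neurons against 30 in MEFs, within the gene. Among microtubule-associated proteins 4 of 9 were, Map1b, Map4, Map6 and the doublecortin relative Dclk1. Map1b, a microtubule-binding protein of growing axons, held 0, 2, 0 and 2 reads at the 4 days and 0 in primary neurons against 32 in MEFs, upstream of the TSS. Of 3 stathmins, Stmn4 was lower in 4 comparisons and also higher in primary neurons and at 3 dpi, with 13 reads against 0 in MEFs each time. The higher region of primary neurons overlapped lower ones in part, while that at 3 dpi shared no bases with them. Ttbk1 also had higher regions at 5 and 7 dpi, with up to 17 reads at 7 dpi against 0 in MEFs, and Dclk1 at 1 dpi (9 reads against 0) and 7 dpi (10 against 0).

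Of growth cone and collapsin response genes, 1 of 10 was lower in at least 4 comparisons. That gene, Dpysl5, held 0, 0, 0 and 1 reads at 1, 3, 5 and 7 dpi and 3 in primary neurons against 33 in MEFs. Intermediate filaments were lower in 3 of 6 cases, Nes (nestin of neural progenitors), Vim (vimentin of fibroblasts and other cells) and Lmnb1 (lamin B1 of the nuclear lamina). Nes was also listed higher at 3 dpi (10 reads against 0 in MEFs) and Vim at 5 dpi (9 against 0). At Lmnb1 the counts were 0, 0, 0 and 2 reads at the 4 days and 0 in primary neurons against 23 in MEFs.

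Of 19 immunoglobulin adhesion molecules, the family of Ncam1, 9 were lower in at least 4 comparisons: Alcam, Cadm2, Cadm3, Cntn1, Cntn2, Cntn4, Lsamp, Nfasc and Opcml. Cadm2, a synaptic adhesion gene, held 0, 0, 5 and 1 reads at 1, 3, 5 and 7 dpi and 0 in primary neurons against 36 in MEFs, also upstream. Nfasc (neurofascin of nodes and initial segments) held 0, 1, 1 and 1 reads at the 4 days and 4 in primary neurons against 50 in MEFs, upstream of the TSS. Nfasc was also listed higher at 1, 3 and 5 dpi, with 9 reads against 0 in MEFs each time, and Opcml at 1 dpi (11 reads against 0) and 3 dpi (17 against 2). Alcam and Cntn1 were also listed higher in primary neurons (9 reads against 0 in MEFs each), and Cntn2 at 7 dpi (10 against 0). In the axon initial segment and spectrin scaffold 4 of 6 were lower that often, Ank3, Epb41l3, Sptbn1 and Sptbn4, and among motors 2 of 10, the kinesins Kif5b and Kif21a. Ank3 was also listed higher at 1 dpi (10 reads against 0 in MEFs) and in primary neurons (11 against 0). Sptbn1 (13 against 0) and Kif5b (9 against 0) were also listed higher at 5 dpi. The motors were listed higher more often than lower at 5 dpi (5 higher and 2 lower of 10) and in primary neurons (3 higher and 2 lower). At 1, 3 and 7 dpi more of them were lower than higher. Of all genes, 16.9% were higher and 34.1% lower at 5 dpi, and 7.43% and 34.8% in primary neurons. Oligodendrocyte markers were also higher more often than lower at 5 dpi (3 higher and 2 lower of 8). With 10 motors, 1 gene moves a share by 10 percentage points. Kif21a held 4, 2, 6 and 1 reads at the 4 days and 4 in primary neurons against 36 in MEFs.

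By state in the 5 comparisons (higher, lower, both or not listed), Stmn2 matched Tubb2a in all 5, Gap43 matched Alcam and Cntn1 in all 5, and Nefm matched Cntn2 in all 5. Dcx matched 14 of the related genes in 4 comparisons, among them Cadm2, Cadm3 and Cntn4. Ncam1 matched 4 of them in 4, among them Kif5b, Nfasc and Sptbn1. Most of these states are lower, and all are read against the same MEF library.

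Markers of other cell types were listed lower too. Fibroblast markers were lower in 5 or 6 of 14 cases per comparison, astrocyte markers in 2 or 3 of 7, oligodendrocyte markers in 1 or 2 of 8, microglia markers in 4 or 5 of 7 and endothelial markers in 3 to 5 of 7. As shares, microglia markers were lower in 57.1 to 71.4% of cases, endothelial ones in 42.9 to 71.4%, fibroblast ones in 35.7 to 42.9%, astrocyte ones in 28.6 to 42.9% and oligodendrocyte ones in 12.5 to 25%, next to 34.1 to 36.8% of all genes. Listed higher were 0 to 2 of the fibroblast, 0 to 2 of the astrocyte, 0 to 3 of the oligodendrocyte, 1 to 3 of the microglia and 0 to 3 of the endothelial markers, where 7.43 to 16.9% of all genes were. Their part in the values of the 10 genes was not tested. By CG content, genes whose 300-base promoter window holds 0 to 4 CG were listed lower in 37.1 to 39.5% of cases per comparison, and those with 25 or more in 32.7 to 35.2%. Of the 3 genes with a sequence, Dcx (3 CG) was listed lower in 4 comparisons, and Tubb3 (26) and Map2 (37) in none. The lower region of Dcx lay outside its window, and the CG content of the other lower-listed genes is not known here. A link between CG content and listing was not tested.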

How the data were processed

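Of 8 samples, 6 were hMeDIP libraries with deposited lists, 1 per group, and 2 inputs were not analysed here on their own. Groups came from the sample titles, and columns were tied to libraries by the code in their headers. For the hyper lists of 3, 5 and 7 dpi the labels cite another code, that of the primary neurons; the headers were followed. CASAVA, Bowtie2 2.1.0 and mm10 are named in the submitters' processing notes. The peak and differential callers and the input used are not stated in these sources.

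Peaks were listed per library, per the file headers. The fold enrichment is a ratio that the authors deposited, and the tags at a summit are whole-number counts, per the file headers. The deposited q column of the peak lists starts at 4.02 and was read as −log10 of q. The authors deposited p-values and q-values of promoter regions, up to 0.0105 and 0.101 in the authors' deposited table. The promoter signal that the authors deposited was whole reads times 1 factor per library and comparison: division by it gave whole numbers within 0.1 for 100% of values. The precision is that of the recovered reads, at least 9 in a higher region and 15 in a lower one. No count model was fitted, because each group had 1 library, and no p-value of its own was computed.

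Regions and peaks of the 10 genes were taken by gene symbol. Overlap meant at least 1 bp. Intervals at 95% were exact conditional Poisson (Clopper-Pearson) intervals on the recovered reads, and folds held 0 reads at a floor of 3. The step finder and intervals were tested on simulated data. Figures were drawn with matplotlib 3.10.9, and all else was computed with pandas 2.3.3, scipy 1.17.1 and numpy 2.4.6 under python 3.11.15. Named genes were all 10 genes, related genes listed one way in at least 4 of 5 comparisons, and up to 3 related genes with the most like states for each of the 10 that was listed in at least 3 comparisons. The 10 genes and all lists were chosen with earlier results of these data known. Alternatives were stricter thresholds, windows, floors, overlaps and unscaled reads.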

Additional observations from a re-analysis of the deposited data

Results flagged for a closer look

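At Ncam1, overlapping regions were listed in opposite directions, both between libraries and within the libraries of 1 and 5 dpi. The region listed higher at 1 dpi (11 reads against 0 in MEFs) and at 5 dpi (9 against 0) shares 100 bp with the region listed lower at 3 dpi (3 reads against 40 in MEFs) and in primary neurons (6 against 40). At 1 dpi (7 reads against 40 in MEFs) and 5 dpi (5 against 40) the same library also had a lower region, which shares 20 bp with the higher one. The difference between libraries was not tested. The narrowest lower region that still holds all 40 MEF reads, from 49800521 to 49800820 on chromosome 9, shares 20 bp with the higher region.

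At Nefm, the region listed higher at 7 dpi (9 reads against 0 in MEFs) shares 180 bp with the regions listed lower at 1 dpi (1 read against 23 in MEFs) and 5 dpi (2 against 23). This difference was not tested either. The narrowest lower region, in primary neurons, holds the same 23 MEF reads between 68125441 and 68125660 on chromosome 14, 20 bp of them inside the higher region.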

How the results depend on the processing

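Counts of genes listed higher, 2, 0, 1 and 1 from day 1 to day 7 and 1 in primary neurons, rest on few reads. With p below 1e-05 they were 0 at 5 dpi, at 7 dpi and in primary neurons. Within 1000 bp of the TSS they were 1 at 1 dpi and 0 at 5 dpi. With at least 15 reads, or at least 8-fold, they were 0 in every comparison, that at 3 dpi included. Counts listed lower, 5, 4, 4, 5 and 5 in the same order, were 2, 2, 2, 2 and 1 with p below 1e-05, and 1, 1, 0, 1 and 2 at 8-fold or more with 0 reads held at 3. Within 1000 bp the counts listed lower were 4, 3, 4, 3 and 4 in that order. The fold limit is read against a floor that caps the fold of a region with 0 reads. Genes with a peak numbered 0, in place of 1, at 5 dpi and in primary neurons with fold enrichment of at least 6 or without intergenic peaks, and in primary neurons with −log10 q of at least 10. Overlaps with MEF peaks moved little when 50% of the shorter feature had to be shared. Unscaled reads made folds 0.556 to 0.571 times as large in the 5 higher regions and 1.75 to 1.80 times in the 36 lower ones. A floor of 1 read in place of 3 made each bound 3 times as large, for example at least 19.6-fold at Tubb3 and 8.44-fold at Dcx at 1 dpi. No paired analysis was possible because each group had 1 library, which also left no replicate to leave out. Regions below the lists' limits of 9 and 15 reads are unknown at this depth.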
